A study of Mus musculus with 3 samples.

Results

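The genes examined here are 10 genes of the mouse node, the notochord and the nodal cilia, chosen by symbol: *Noto*, *Foxa2*, *Chrd*, *Nog*, *Foxj1*, *Rfx3*, *Dnahc5*, *Dnahc9*, *Dnahc11* and *Pkd1l1*. The tables list 17633 genes in all, 9 of these 10 among them, and *Pkd1l1* was listed in no table. The endoderm, mesoderm and epiblast of ICR embryos at E7.5 were separated by enzyme digestion and needles, and the RNA of many embryos was pooled and sequenced, with 1 library for each layer. The epiblast sample held the neuroectoderm and the primitive streak together, and the study's methods do not say with which layer the node was taken. There is no replicate, so each difference below compares 2 libraries, and every interval covers counting error only. The counted reads came to 41.7 M for endoderm, 40.8 M for mesoderm and 42.7 M for epiblast.

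The node lies at the anterior end of the primitive streak, on the ventral surface of the embryo, and gives rise to the notochord. Its cells secrete BMP antagonists, and its pit cells each carry a single motile cilium whose rotation drives the leftward flow that sets the left-right axis. FOXJ1 and RFX factors switch on genes of the motile cilium, among them the dynein heavy chains that form the motors of the axoneme. In pooled tissue, fewer node cells and less RNA per node cell cannot be told apart.

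The layers were first checked by their markers. All 8 endoderm markers, with *Sox17*, *Afp* and *Ttr* among them, were highest in endoderm, at a summed RPKM of 4745 against 60.1 in mesoderm and 98.5 in epiblast. RPKM is the read count of a gene scaled to its length and to the counted reads of its library. All 8 mesoderm markers were highest in mesoderm (summed RPKM 24.1 for endoderm, 543.7 for mesoderm and 115.6 for epiblast). Of the 8 epiblast markers, 6 were highest in epiblast (372.6, 225.6 and 1540 in the same order), whereas *Fgf5* and *Cdh1* were highest in endoderm. Their endoderm RPKM was only 1.05-fold and 1.16-fold that of epiblast. All 8 primitive streak markers were highest in epiblast, at a summed RPKM of 135.8 for endoderm, 148.0 for mesoderm and 378.3 for epiblast. No endoderm, mesoderm, epiblast or streak marker was at 0 reads in any library.

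*Noto*, the homeobox factor of the node and the early notochord, was a gene of the endoderm library. It had 1058 reads from endoderm, 58 from mesoderm and 175 from epiblast, which gave an RPKM of 15.9, 0.886 and 2.56. The endoderm value was 17.9-fold that of mesoderm (95% interval 13.7 to 23.7) and 6.20-fold that of epiblast (5.28 to 7.32). *Noto* lies on the plus strand of chromosome 6 from 85423886 to 85428877 (GENCODE M21, GRCm38), and none of its exons overlaps another gene.

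*Foxa2* encodes a forkhead factor needed to form the node, and it also marks definitive and visceral endoderm. The study used it as an endoderm marker when checking the dissection. It lies on the minus strand of chromosome 2 from 148042877 to 148046969. It had 3895 reads from endoderm, 121 from mesoderm and 234 from epiblast, or an RPKM of 44.0, 1.39 and 2.58. Endoderm exceeded mesoderm 31.6-fold (26.3 to 38.1) and epiblast 17.1-fold (15.0 to 19.6). The epiblast RPKM of *Foxa2* and of *Noto* had overlapping intervals (2.26 to 2.93 and 2.19 to 2.97), although the endoderm RPKM of *Foxa2* was far above that of *Noto*.

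The sequences before the start sites of *Noto*, of *Foxa2* and of the dynein heavy chain gene *Dnahc5* are shown because these genes had the largest ratios of endoderm to mesoderm among the members with a sequence at hand. Each is the 250 bases upstream of the RefSeq start (GRCm38.p6), written 5′ to 3′ on the strand of the gene. They span chr6:85423636-85423885 for *Noto*, chr2:148046970-148047219 for *Foxa2* and chr15:28203516-28203765 for *Dnahc5*. Capitals mark a match to a forkhead motif.
Noto: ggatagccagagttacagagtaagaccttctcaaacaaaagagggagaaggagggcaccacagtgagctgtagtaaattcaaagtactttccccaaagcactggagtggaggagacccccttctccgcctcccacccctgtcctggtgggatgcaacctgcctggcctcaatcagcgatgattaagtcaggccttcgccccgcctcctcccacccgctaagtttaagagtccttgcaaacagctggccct
Foxa2: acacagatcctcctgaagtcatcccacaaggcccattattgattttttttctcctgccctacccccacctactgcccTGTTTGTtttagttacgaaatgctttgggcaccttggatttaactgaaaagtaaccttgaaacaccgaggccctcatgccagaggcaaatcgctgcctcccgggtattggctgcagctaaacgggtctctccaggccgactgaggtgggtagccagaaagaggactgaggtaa
Dnahc5: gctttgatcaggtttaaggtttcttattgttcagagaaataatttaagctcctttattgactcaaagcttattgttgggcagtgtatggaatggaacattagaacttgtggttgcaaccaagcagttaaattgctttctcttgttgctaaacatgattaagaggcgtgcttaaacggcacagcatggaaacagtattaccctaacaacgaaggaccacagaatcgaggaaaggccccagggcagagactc

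Windows from 250 bases before to 50 bases after the start were searched on both strands for TGTTTAC and TGTTTGT (forkhead), for GTTGCC (RFX half-site) and for the X-box, written as GTTNCC and GGNAAC 0 to 3 bases apart. Windows were at hand for 8 of the 10 genes, all but *Nog* and *Foxj1*, with 3 start sites for *Foxa2* and 1 for each of the others. The search gave 1 forkhead match, TGTTTGT in the most upstream window of *Foxa2*, and 1 RFX half-site, in the window of *Rfx3* past its start. No window of *Noto*, *Chrd*, *Dnahc5*, *Dnahc9*, *Dnahc11* or *Pkd1l1* held any of these letters. Among all 32851 windows, 3.65% held TGTTTAC, 6.61% TGTTTGT, 12.5% GTTGCC and 0.804% the X-box.

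*Chrd* and *Nog* encode chordin and noggin, secreted proteins that bind BMPs and keep them from their receptors. *Chrd* had 1841 reads from endoderm, 131 from mesoderm and 488 from epiblast, for an RPKM of 13.4, 0.974 and 3.47. It was 13.8-fold higher in endoderm than in mesoderm (11.5 to 16.6) and 3.87-fold higher than in epiblast (3.50 to 4.28). The order of the layers was thus that of *Noto*, with epiblast between the other 2. *Chrd* lies on the plus strand of chromosome 16 from 20733127 to 20742384, and 239 bases of its exons overlap *Thpo* on the other strand (RPKM 5.51, 0.263 and 0.863 in endoderm, mesoderm and epiblast). Whether counting used the strand is not stated in the sources used here.

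*Nog* was spread more evenly. It had 481 reads from endoderm, 199 from mesoderm and 120 from epiblast, with an RPKM of 6.01, 2.53 and 1.46. Endoderm was 2.37-fold above mesoderm (2.01 to 2.81) and 4.11-fold above epiblast (3.36 to 5.06). Of the 8 genes highest in endoderm, *Nog* and *Dnahc11* were those with more reads in mesoderm than in epiblast by intervals that leave out equality, *Nog* by 1.73-fold (1.38 to 2.19). *Nog* lies on the minus strand of chromosome 11 from 89300638 to 89302332 and overlaps no other exon.

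*Foxj1*, the forkhead factor that drives motile cilium genes, was the most abundant of the 9 listed genes in epiblast and stood beside *Foxa2* in endoderm. It had 4555 reads from endoderm, 239 from mesoderm and 1182 from epiblast, for an RPKM of 42.1, 2.25 and 10.6. Endoderm was 18.7-fold above mesoderm (16.4 to 21.4) and 3.95-fold above epiblast (3.71 to 4.22). Epiblast in turn was 4.73-fold above mesoderm (4.11 to 5.46). The endoderm intervals of *Foxj1* (40.9 to 43.3) and *Foxa2* (42.6 to 45.4) overlapped. *Foxj1* lies on the minus strand of chromosome 11 from 116330704 to 116335399, with no overlapping exon.

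*Rfx3*, an RFX factor of ciliated cells that the node needs for cilia of normal length, hardly differed between layers. It had 1648 reads from endoderm, 1437 from mesoderm and 1790 from epiblast, and its RPKM was 4.31, 3.83 and 4.56. The ratio of endoderm to mesoderm was 1.12 (1.05 to 1.21) and that of endoderm to epiblast 0.944 (0.882 to 1.01). Epiblast was 1.19-fold above mesoderm (1.11 to 1.28). The layer with the highest *Rfx3* depended on the scaling, since 3 of 4 other scalings placed it in endoderm. *Rfx3* lies on the minus strand of chromosome 19 from 27761721 to 28011166.

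**Figure D1:**
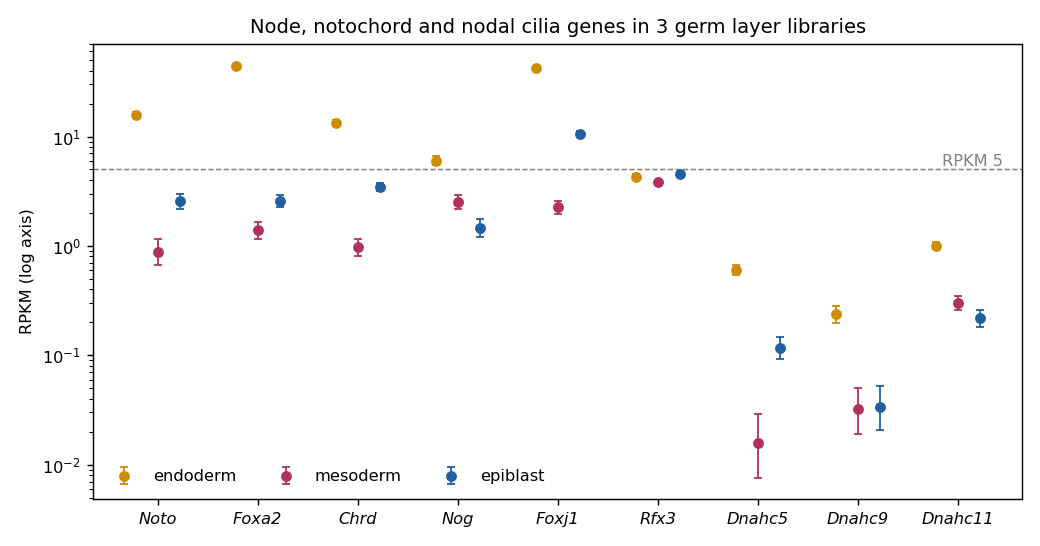
RPKM on a log axis of the 9 listed genes in the endoderm, mesoderm and epiblast libraries, 1 point per library with its 95% Poisson interval for counting error; the dashed line marks RPKM 5. Except for *Rfx3*, whose points lie between 3.83 and 4.56, each gene is highest in endoderm, and the 3 dynein genes lie at or below an RPKM of about 1.01.

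The outer arm dynein heavy chains were the least abundant of these genes. *Dnahc5*, whose product is a motor of the outer arm, had 394 reads from endoderm, 10 from mesoderm and 78 from epiblast. Over its 15616 bases this gave an RPKM of 0.606, 0.0157 and 0.117. Endoderm was 38.6-fold above mesoderm (20.8 to 81.2), the largest such ratio among the 9 genes but from only 10 reads in mesoderm, and 5.18-fold above epiblast (4.05 to 6.69). *Dnahc5* lies on chromosome 15 from 28203752 to 28472052 on the plus strand.

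*Dnahc9*, another outer arm heavy chain, had 136 reads from endoderm, 18 from mesoderm and 20 from epiblast, or an RPKM of 0.237, 0.032 and 0.034. It was 7.41-fold higher in endoderm than in mesoderm (4.52 to 12.9) and 6.97-fold higher than in epiblast (4.34 to 11.8). Mesoderm and epiblast could not be separated at this depth, with a ratio of 0.941 (0.469 to 1.87). The gene lies on chromosome 11 from 65831282 to 66168551 on the minus strand, and 495 bases of its exons overlap the antisense gene *Gm12296*.

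*Dnahc11*, the heavy chain whose loss randomizes left and right in the *iv* mouse, had the most reads of the 3 genes. It had 590 from endoderm, 173 from mesoderm and 131 from epiblast, with an RPKM of 1.01, 0.301 and 0.218. Endoderm was 3.34-fold above mesoderm (2.82 to 3.99) and 4.62-fold above epiblast (3.82 to 5.62). Mesoderm was 1.38-fold above epiblast (1.09 to 1.75). The gene lies on chromosome 12 from 117877982 to 118199043 on the minus strand, and 642 bases of its exons overlap *Cdca7l* on the other strand, which had RPKM 10.2 for endoderm, 19.1 for mesoderm and 35.1 for epiblast. The part of *Cdca7l* in the *Dnahc11* reads was not tested.

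The percentage of the gene length covered by reads, a readout that the choice of genes did not use, was set beside that of other genes with a read density within 10% of each value. In endoderm the reads covered 74.6% of *Dnahc5*, 48.3% of *Dnahc9* and 87.0% of *Dnahc11*, and the medians of the genes of like density were 72.4%, 47.8% and 83.4%. The endoderm reads of these long genes were therefore spread along them as in other genes. In mesoderm the 173 reads of *Dnahc11* covered 29.96%, near the 5th percentile (29.1%) of 291 genes of like density, whose median was 52.3%. In epiblast the coverage of *Dnahc11* was 35.9% against a median of 47.9%. The lower mesoderm and epiblast counts of *Dnahc11* thus came from a smaller part of its length than for the median gene of that density. *Dnahc5* and *Dnahc9* lay nearer their medians, with 5.76% against 5.58% and 8.87% against 11.1% in mesoderm, and 34.0% against 31.8% and 12.2% against 12.2% in epiblast.

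**Figure D2:**
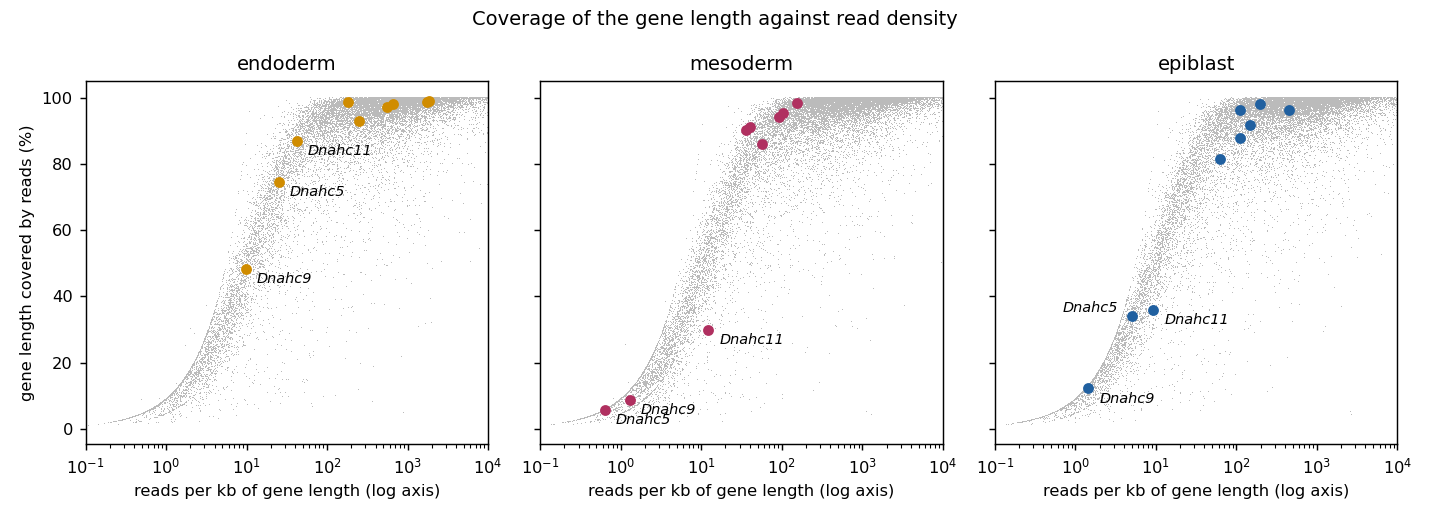
Percentage of gene length covered by reads against reads per kilobase of gene length (log axis), with a panel for each library; grey dots are all genes with reads and coloured points the 9 listed genes, the dynein genes by name. *Dnahc11* lies on the main band in endoderm (87.0%) and below it in mesoderm (29.96%).

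*Pkd1l1* encodes a polycystin that works with PKD2 in sensing flow at the node. It lies on chromosome 11 from 8826708 to 8973266 on the minus strand, and no row of the tables carries its symbol. Since the gene set used for counting is not given in the sources used here, a count of 0 and a gene that was never counted cannot be told apart, and no level is given.

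The study's criteria for a differentially expressed gene were RPKM>5 in at least 1 of the 2 libraries, Fold Change>2 and FDR<0.001, with the FDR taken from the two-sided Audic and Claverie exact test of both libraries' reads. *Noto*, *Foxa2*, *Chrd*, *Nog* and *Foxj1* met them for endoderm over mesoderm and also for endoderm over epiblast. These 5 are all of the members that reached RPKM>5 in any library. *Foxj1* also did so in epiblast (10.6), and the others in endoderm alone. The RPKM minimum itself thus favoured members high in endoderm. The 2 comparisons share the endoderm library. Among all genes with RPKM>5 in either library, 14.4% were called higher in endoderm than in mesoderm and 8.56% lower. Against epiblast, 15.7% were called higher in endoderm and 8.94% lower. Between mesoderm and epiblast *Foxj1* alone of the members was called, higher in epiblast, where 5.02% of all such genes were called higher in epiblast and 5.3% higher in mesoderm. If RPKM>5 in the endoderm library were enough for this pair, *Noto* and *Chrd* would be called higher in epiblast as well.

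Without the RPKM minimum, for genes with more than 3 reads in either library, 8 of the 9 genes were called higher in endoderm than in mesoderm and 8 higher than in epiblast. The exception in both was *Rfx3*. The share of all genes called in this way was 16.2% higher and 12.8% lower in endoderm against mesoderm, and 15.9% higher and 14.0% lower in endoderm against epiblast. Between mesoderm and epiblast, *Noto* (2.89-fold, 2.13 to 3.95), *Chrd* (3.56-fold, 2.93 to 4.36), *Foxj1* and *Dnahc5* (7.46-fold, 3.85 to 16.2) were called higher in epiblast and none higher in mesoderm, with 9.73% and 7.63% of all genes called in these directions. *Foxa2*, at 1.85-fold (1.48 to 2.32), lay below Fold Change>2. The median fold over the 9 genes was 13.8 for endoderm over mesoderm and 4.62 for endoderm over epiblast. Over all genes with more than 3 reads the median log2 ratio was -0.11 in both.

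Under an assumed spread between replicates of 0.4 (edgeR's biological coefficient of variation, with its exact test), the calls for endoderm over mesoderm were *Noto*, *Foxa2* and *Foxj1*, for endoderm over epiblast *Foxa2*, and between mesoderm and epiblast 0. Over all genes the calls in this setting fell from 1279 to 311 for endoderm over mesoderm, from 1385 to 267 for endoderm over epiblast and from 419 to 28 for epiblast over mesoderm. With Fold Change>4, *Chrd* and *Foxj1* were no longer called against epiblast and *Nog* no longer against mesoderm.

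**Figure D3:**
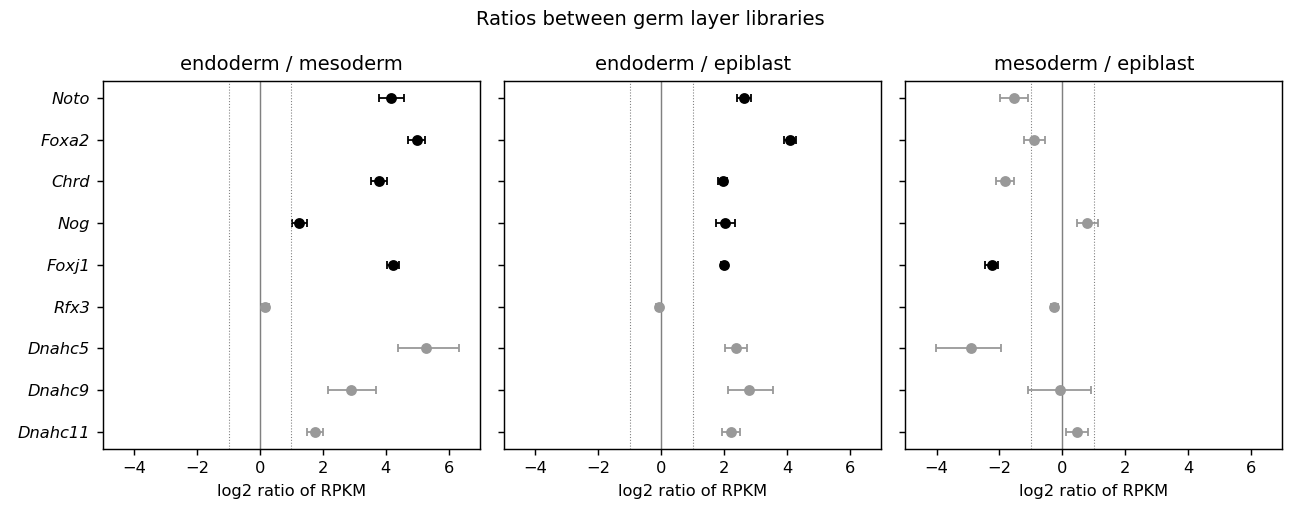
Log2 ratio of RPKM of the 9 listed genes in the 3 pairs of libraries, with 95% exact intervals for counting error; black points met the criteria of the study, grey points did not, and dotted lines mark a ratio of 2 either way. All genes but *Rfx3* lie right of 1 in the first 2 panels, and *Noto*, *Chrd*, *Foxj1* and *Dnahc5* lie left of -1 in the third.

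Most of the genes kept a sizeable part of their endoderm level in epiblast. The epiblast RPKM as a percentage of that in endoderm was 25.9% for *Chrd* (23.4 to 28.6), 25.3% for *Foxj1* (23.7 to 27.0), 24.3% for *Nog* (19.8 to 29.8), 21.7% for *Dnahc11* (17.8 to 26.2) and 19.3% for *Dnahc5* (14.9 to 24.7). The intervals of neighbours in this order overlapped. *Noto*, at 16.1% (13.7 to 18.9), and *Dnahc9*, at 14.3% (8.49 to 23.0), followed. *Foxa2* was lowest at 5.86% (5.11 to 6.69), and its interval met none of the others.

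In mesoderm the same percentage was 2.59% for *Dnahc5* (1.23 to 4.81), 3.17% for *Foxa2* (2.62 to 3.80), 5.35% for *Foxj1* (4.68 to 6.09), 5.59% for *Noto* (4.22 to 7.28) and 7.26% for *Chrd* (6.03 to 8.67). It was 13.5% for *Dnahc9* (7.77 to 22.1), 29.9% for *Dnahc11* (25.1 to 35.5) and 42.2% for *Nog* (35.6 to 49.9). The spread between genes was wider in mesoderm than in epiblast, from 2.59% to 42.2% against 5.86% to 25.9%.

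Markers of the endoderm were set beside these values. The 10 visceral endoderm markers, such as *Afp*, *Ttr*, *Apob* and *Cubn*, were in epiblast at 0.015% to 0.729% of their endoderm RPKM, with a median of 0.0568%, and in mesoderm at 0.0334% to 1.10%, with a median of 0.0569%. Their summed RPKM was 4651 for endoderm, 8.33 for mesoderm and 6.54 in epiblast, and none was at 0 reads. Over the 8 genes highest in endoderm the median was 20.5% in epiblast and 6.42% in mesoderm. Each of these 8 genes held a larger share of its endoderm level in epiblast and in mesoderm than any visceral endoderm marker did. The contrast depends on the choice of genes, since *Rfx3* was left out as not highest in endoderm. The marker lists were chosen with earlier results of these data known. The definitive endoderm list was mixed, with a median of 6.50% in epiblast and 32.4% in mesoderm over the 7 of 8 genes with more than 3 endoderm reads. Its *Cer1* was at 0.478% in epiblast but 34.4% in mesoderm, whereas *Cldn6* was at 18.7% and 0.656% and *Trh* at 8.32% and 1.71%. The epiblast values of *Cldn6*, *Trh* and *Hhex* (6.50%) lay within the range of the 8 node and cilia genes. Those of *Sox17* (0.815%), *Cer1* and *Nepn* lay below that range, and that of *Gsc* (177%, from 11 endoderm reads) lay above it. *Pyy* was at 0 reads in endoderm and in epiblast, and *Nepn* at 0 in epiblast. The part of carried-over endoderm cells in the epiblast and mesoderm values was not tested.

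**Figure D4:**
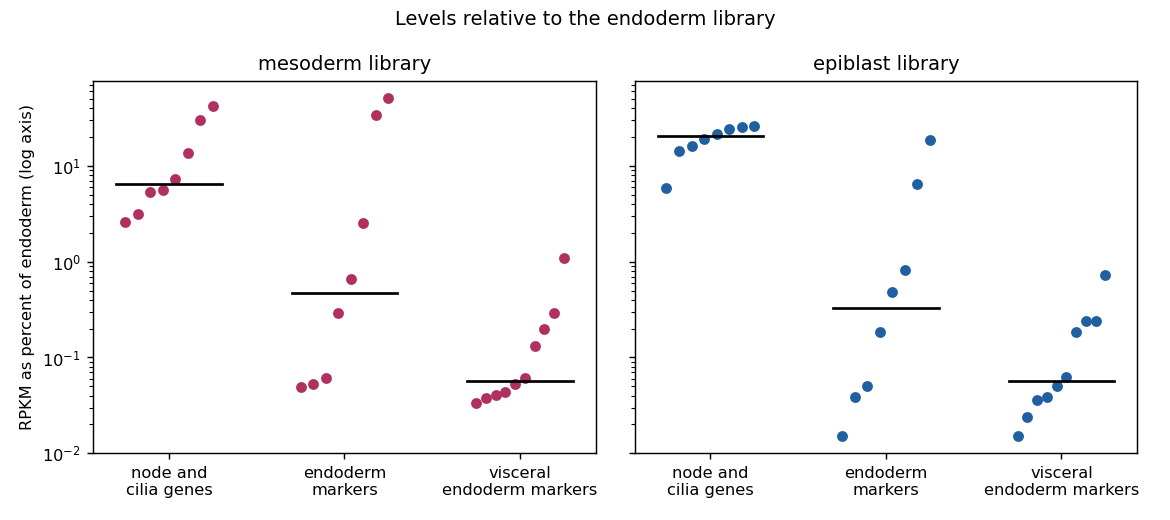
RPKM in mesoderm (left) and in epiblast (right) as a percentage of the RPKM in endoderm, on a log axis, for the 8 node and cilia genes highest in endoderm, the 8 endoderm markers and the 10 visceral endoderm markers; points are genes and bars medians. In epiblast the node and cilia genes lie between 5.86% and 25.9%, above all visceral endoderm markers. Of the endoderm markers, *Cldn6* (18.7%) and *Hhex* (6.50%) lie within that range. In mesoderm *Hhex* (51.3%) lies above every node and cilia gene, and *Cer1* (34.4%) above all but *Nog*. *Afp*, *Ttr* and *Amn* are in both marker lists.

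Other genes of the node and notochord went different ways. Of 17 such genes 16 were listed, *Gdf1* being the one that was not, and 10 of them were highest in endoderm. By the criteria, 5 were called higher in endoderm than in mesoderm and 1 lower, and 6 higher than in epiblast and 3 lower. The median log2 ratio was 1.36 against mesoderm and 0.82 against epiblast. *Shh*, the signal of the notochord, had 888 reads from endoderm, 20 from mesoderm and 47 from epiblast, with an RPKM of 7.82, 0.18 and 0.404. *Foxa1*, a relative of *Foxa2*, had an RPKM of 20.5, 0.376 and 0.455 in the same order. *Foxd4* had 13.9, 0.814 and 3.47, and *Bicc1*, which encodes an RNA-binding protein needed for node cilia to align, had 23.5, 3.05 and 2.57. All 4 were called higher in endoderm than in each other layer.

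Genes of the left-right signal differed among themselves. *Nodal* had 413 reads from endoderm, 13 from mesoderm and 197 from epiblast (RPKM 4.73, 0.152 and 2.20), so that it reached Fold Change>2 against both layers but not RPKM>5. *Dand5*, the antagonist of Nodal made by the crown cells of the node, had 166, 46 and 152 reads, and its ratio of endoderm to epiblast was 1.12. *Cfc1*, which encodes a co-receptor of Nodal, had 1170, 1713 and 228 reads (RPKM 27.1, 40.4 and 5.14) and was called higher in endoderm than in epiblast but not against mesoderm. *Calca* had RPKM 5.03 for endoderm, 0.551 for mesoderm and 4.26 for epiblast. *Car3* went the other way, with 1.64, 15.9 and 8.87. *T* (brachyury), which the streak and the notochord share, was highest in epiblast, with RPKM 93.7 for endoderm, 74.8 for mesoderm and 228.5 for epiblast.

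The other BMP antagonists and the proteins that act with chordin were most often highest in mesoderm. Of 17 listed genes 3 were highest in endoderm, 10 were so in mesoderm and 4 in epiblast, and their median log2 ratio was -1.48 for endoderm over mesoderm. By the criteria 1 was called higher in endoderm than in mesoderm, *Cer1*, and 3 lower, *Fst*, *Fstl1* and *Bmper*. Against epiblast 1 was called higher in endoderm, *Cer1*, and 1 lower, *Fst*. *Cer1*, which encodes an antagonist of BMP, Nodal and WNT, had an RPKM of 137.9, 47.4 and 0.659, in the same order of layers as *Nog*. *Fst*, which encodes the activin and BMP binder follistatin, had RPKM 2.35 for endoderm, 14.5 for mesoderm and 50.7 for epiblast. *Bmper* had 2.08, 7.31 and 2.09. *Bmp1*, whose product cleaves chordin, had 3.60, 5.86 and 3.43 and was not called in any pair, nor was *Twsg1* (28.4, 32.6 and 26.5), whose product forms complexes with chordin and BMP.

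The genes of the motile axoneme were counted beside the 3 heavy chains. Of 23 genes of the radial spokes, central pair, nexin link and axoneme, all were listed, and 18 were highest in endoderm. Without the RPKM minimum, 17 were called higher in endoderm than in mesoderm and 1 lower, and 12 were called higher than in epiblast and 0 lower. Of all genes, 16.2% and 15.9% were called higher in endoderm in these pairs in this way. By the full criteria, 6 of the list were called higher in endoderm than in mesoderm and 1 lower. Against epiblast they gave 4 higher and 0 lower. The median log2 ratio was 2.22 against mesoderm and 1.32 against epiblast. *Enkur* had 325 reads from endoderm, 3 from mesoderm and 72 from epiblast, a ratio of endoderm to mesoderm of 106.2 (36.0 to 517.9). *Tekt4*, a tektin of the axoneme, had 147, 0 and 40 reads or a ratio of at least 48.1 for a mesoderm floor of 3 reads per library. The genes listed as *1700009P17Rik* (Cfap126), *1700027A23Rik* (Pifo) and *Tekt1* met the full criteria in both pairs, with an endoderm RPKM of 13.3, 10.8 and 5.75. *Enkur* met them in both pairs too, with an endoderm RPKM of 6.36. *Rsph4a*, a radial spoke head gene, had an RPKM of 3.36, 0.174 and 0.667. *Mns1* was the gene called lower in endoderm (RPKM 20.5, 46.9 and 29.5), and 2842 bases of its exons overlap *Tex9*.

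Of the 16 other axonemal dynein subunits 13 were listed. Without the RPKM minimum 6 were called higher in endoderm than in mesoderm and 0 lower, and 5 higher than in epiblast and 1 lower. By the full criteria 0 were called in either pair, since only 1 reached RPKM>5. Among those with reads in mesoderm, the largest ratio of endoderm to mesoderm was that of the inner arm heavy chain *Dnahc6* (33.2-fold). *Dnahc6* had 406 reads from endoderm, 12 from mesoderm and 60 from epiblast. *Dnali1* had 61 reads from endoderm, 0 from mesoderm and 26 from epiblast. Its ratio of endoderm to mesoderm was at least 19.9, a lower bound that cannot be ranked against *Dnahc6*. *Dnaic1* and *Dnaic2*, intermediate chains of the same outer arm as *Dnahc5*, had 79, 7 and 65 reads and 152, 24 and 33 reads. *Dnalc4* had the highest RPKM of the list, at 9.11, 10.6 and 11.2, and was not called in any pair. The heavy chains *Dnahc7a* and *Dnahc7b* are near-identical copies, so their uniquely mapped reads are uncertain.

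Of 14 genes that assemble or dock the dynein arms 12 were listed, of which 9 were called higher in endoderm than in mesoderm and 6 higher than in epiblast without the RPKM minimum, and 0 lower. *Zmynd10* alone of the list met the full criteria, in both pairs, with RPKM 6.22 for endoderm, 0.275 for mesoderm and 1.05 for epiblast. *Heatr2* had the highest RPKM of the list (17.2, 19.8 and 19.3) and was not called. The general parts of cilia behaved otherwise. Of 22 genes of intraflagellar transport, which builds motile and immotile cilia alike, 20 reached RPKM>5, and 0 were called higher in endoderm. *Ift27*, at RPKM 20.9, 28.1 and 34.5, was highest of the list in mesoderm and in epiblast. *Ttc21b* was called lower in endoderm than in both other layers (RPKM 4.63, 10.3 and 12.8) and *Traf3ip1* lower than in epiblast (3.96, 6.04 and 10.5). The median log2 ratio of the list was -0.32 against mesoderm and -0.17 against epiblast.

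*Pkd2*, which encodes the channel partner of PKD1L1, had RPKM 5.54 for endoderm, 9.27 for mesoderm and 9.05 for epiblast and was not called. Of 6 factors of multiciliated cells, a cell type that the node lacks, the *Mcidas* gene (listed as *Gm6320*) had 0, 0 and 9 reads and *Gmnc* (listed as *Gm606*) had 0, 2 and 41. *Ccno*, of the same list, had 375, 46 and 377 reads (RPKM 4.80, 0.600 and 4.71), and without the RPKM minimum it was called 7.99-fold higher in endoderm than in mesoderm. *Myb*, which has many roles outside such cells, was called higher in epiblast than in both other layers, with an RPKM of 0.324, 0.441 and 7.02. Of the other 6 RFX genes only 2 reached RPKM>5, and 0 met the full criteria. Without the RPKM minimum, 1 was called higher and 1 lower in endoderm against mesoderm, and likewise against epiblast. *Rfx7*, the most abundant of them in mesoderm and in epiblast, had an RPKM of 6.77, 11.7 and 9.25. *Rfx6*, an RFX gene of the gut endoderm, had 207 reads from endoderm, 0 from mesoderm and 16 from epiblast, and *Rfx4*, of the neural tube, had 12, 10 and 170.

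**Figure D5:**
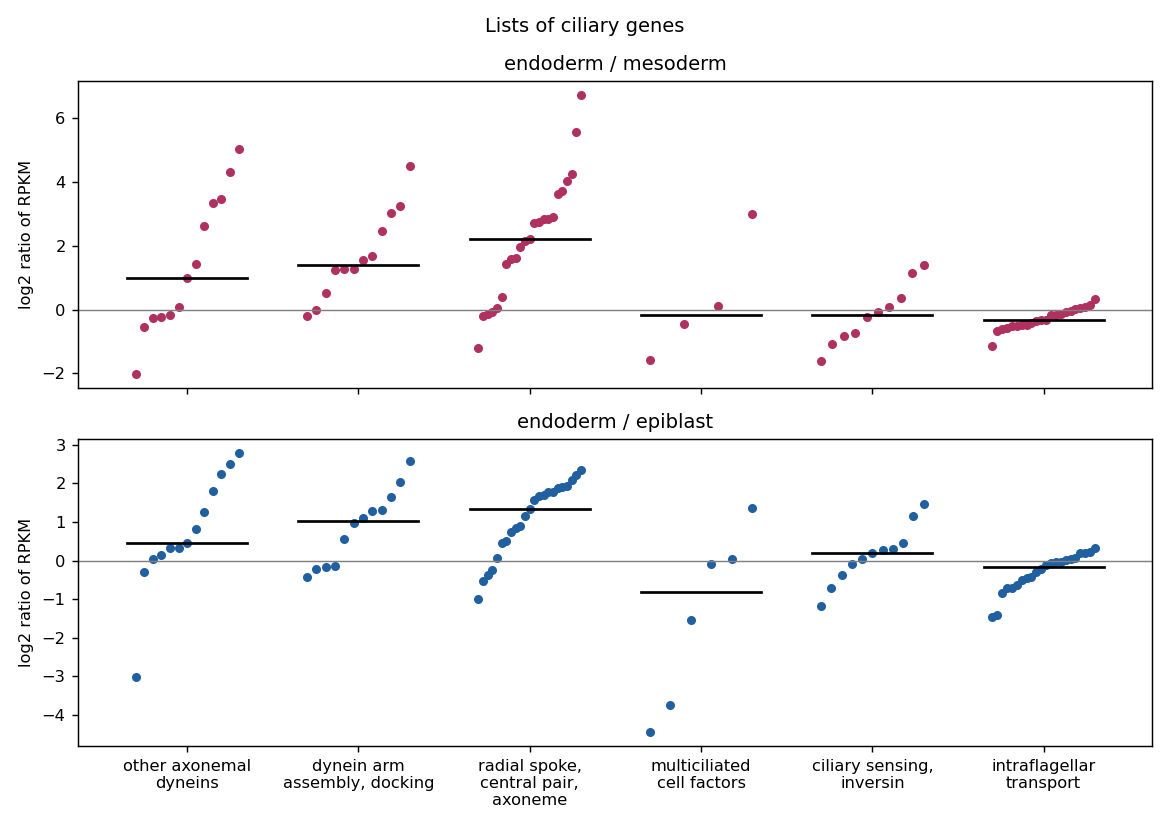
Log2 ratio of RPKM of endoderm to mesoderm (top) and to epiblast (bottom) for 6 lists of ciliary genes, 1 point per gene with more than 3 reads in either library and counts under 3 set to 3; bars are medians. The axoneme list has medians of 2.22 and 1.32, and the intraflagellar transport list -0.32 and -0.17.

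The genes with the most similar split over the 3 libraries were sought among 13078 other genes with at least 100 reads in all, by the distance between the RPKM shares of the layers. With 3 libraries this is a coarse measure, and between 51 (*Foxj1*) and 1126 (*Rfx3*) genes lay within a distance of 0.05. The nearest to *Noto* were *Atp8a2*, *Ccdc113* and *Gm962*. *Ccdc113* had RPKM 1.61 for endoderm, 0.077 for mesoderm and 0.258 for epiblast. Nearest to *Foxj1* were *Rnf208*, *Foxd4* and *Gstm3*, with *Foxd4* at a distance of 0.00486. Nearest to *Foxa2* were *Espn*, *Dqx1* and *Dnajc22*, and to *Chrd* *Elmod1*, *Nbeal2* and *Gstm3*. For *Nog* they were *Nagk*, *Xbp1* and *Prkar1b*, and for *Rfx3* *Gm684*, *Sh3glb2* and *Zfp273*. The neighbours of *Dnahc5* were *Egfl6*, *Ocln* and *Ermn*, those of *Dnahc9* were *Paqr9*, *Xlr3c* and *Maob*, and those of *Dnahc11* were *Aph1c*, *Arpc1b* and *Podxl*.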

How the data were processed

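Per the labels, total RNA of each germ layer of E7.5 ICR mouse embryos was sequenced with paired-end reads. The authors deposited, for each gene with a read, the count of uniquely mapped reads without normalization, the RPKM and the percent of the gene length covered. The submitters' processing notes name TopHat, mm10 and mm9, and the aligner, annotation and strand setting of these tables are not given in the sources used here. For the genes examined, the deposited RPKM equals the count scaled to gene length and to the counted reads of the library.

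Unlisted genes were given 0 reads in that library. In ratios, counts under 3 were set to 3, the limit that a count of 0 allows. Genes were called by the criteria of the study, with the RPKM minimum read as applying to the pair of libraries compared. The Audic and Claverie exact test was run two-sided, with Benjamini-Hochberg adjustment over every gene read in either of the libraries. The spread between replicates cannot be estimated from 1 library per layer, so edgeR's exact test was run with assumed values of 0.2 and 0.4, as an alternative. Intervals at 95% are exact, from Poisson counts for levels and Clopper-Pearson bounds for ratios. The calls and intervals were tested on simulated data. The members and lists were chosen with earlier results of these data known. Genes named are the members, the called genes of each list with the largest folds, the gene of highest RPKM in a list, the 3 nearest genes in pattern and, chosen after their values were seen, genes named for their role or as exceptions. One gene that this rule would name is not reported here. Older symbols were matched through RefSeq synonyms, and positions come from GENCODE M21 (GRCm38). Promoter windows are from RefSeq (GRCm38.p6). Tables and tests used SciPy 1.17.1, numpy 2.4.6 and pandas 2.3.3 under Python 3.11.15, plots matplotlib 3.10.9, and edgeR 4.0.16 ran under R 4.3.3.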

Additional observations from a re-analysis of the deposited data

How the results depend on the processing

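The 8 genes highest in endoderm were so under all 4 other scalings (equal RPKM totals, median of ratios, upper quartile and TMM), and each of the 5, 5 and 1 calls was kept under them. The number called higher in endoderm than in mesoderm moved from 5 to 8 without the RPKM minimum and to 3 when edgeR assumed a biological coefficient of variation of 0.4. Against epiblast it moved from 5 to 8, 3 with Fold Change>4 and 1 at a coefficient of 0.4. Between mesoderm and epiblast it moved from 1 to 3 with RPKM>1, 4 without the RPKM minimum and 0 at a coefficient of 0.4. At 0.2 the counts were 4, 5 and 1. These steps drop or add genes by their level, by their fold or by the assumed spread. The scalings moved ratios by at most 0.11 (log2) for endoderm to mesoderm and by -0.13 to 0.11 for endoderm to epiblast. That turned the order of *Rfx3* between endoderm and epiblast and changed no call. With 1 library per layer no replicate could be left out. No paired analysis was possible because no layer has a second sample. Values of 10 to 20 reads, as for *Dnahc5* and *Dnahc9* in mesoderm, limit those ratios.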
